A study of Drosophila melanogaster with 2 samples.

Results

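The regions described here stand just below the threshold in a ranked list of chromatin immunoprecipitation sequencing (ChIP-seq) regions of the nuclear protein Dan in the Drosophila melanogaster embryo, and were chosen from that list by their irreproducible discovery rate (IDR). A low IDR means that a region kept a high and like rank in both of the call sets compared, and the authors' thresholded peaks end at 0.01. The rule kept regions with an IDR over 0.01 and up to 0.05 on the chromosome arms that overlap no thresholded peak, and left out summits in exons more than 500 bp from every transcription start site (TSS). It found 962 regions of 130105 in the ranked list. On the arms 1448 of 126644 ranked regions, or 1.14%, had an IDR in the range. Of these, 176 overlapped a thresholded peak and 310 had such an exonic summit.

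In the strain, dan-GFP, the gene distal antenna (dan) was joined to the sequence of eGFP, a fluorescent tag. Whole embryos aged 0 to 8 h were used, with 2 biological replicates in a single group. Sonicated chromatin of 200 to 800 bp was pulled down through the tag by an anti-GFP antibody. No embryos without the tag form a group, and whether untagged Dan was also present is not stated. The sex of the embryos was not collected, and a value from the whole embryo averages over all its tissues. The read depth of the libraries is unknown, because the lists hold signals rather than counts, and no marker of a cell type can be checked in such lists. Whether the replicates came from separate crosses or cages is not stated.

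Dan and its neighbour Distal antenna-related (Danr) are nuclear proteins with a DNA-binding domain of the Pipsqueak type, known in flies for antennal identity, eye development and the timing of neuroblast competence. ChIP-seq maps where a protein meets the genome by counting the DNA fragments that come down with it. A promoter is the stretch around the start of a gene, and a pair of genes that start back to back share a divergent promoter.

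Sequences of 2 kinds are printed, from the Release 6 assembly (dm6), plus strand, 100 bp either side of the summit. Capitals mark CAGTG and its reverse complement CACTG, a string that is frequent at the thresholded peaks, and GAGAGA or TCTCTC, the repeat known to be bound by the GAGA factor and by Pipsqueak. The first 9 are exon-free windows of the arms from which sequence is shown, the 3 with the highest signal for each kind of place among regions with a ranked region in both replicates. The windows nearest to smg (chr3L:8996264-8996464), Sf3b3 (chr3L:820418-820618) and dmrt11E (chrX:13368267-13368467) lie within 500 bp of a TSS, which at Sf3b3 is that of a noncoding RNA gene, with the protein-coding start 12867 bp away. Those nearest to Kdm2 (chr3R:9055833-9056033), Ppr-Y (chrY:1672320-1672520) and Pzl (chr3R:3016976-3017176) lie in introns. Those nearest to CG43815 (chr2L:3566677-3566877), ATbp (chrX:23416209-23416409) and Myo81F (chr3R:261540-261740) lie between genes.
smg: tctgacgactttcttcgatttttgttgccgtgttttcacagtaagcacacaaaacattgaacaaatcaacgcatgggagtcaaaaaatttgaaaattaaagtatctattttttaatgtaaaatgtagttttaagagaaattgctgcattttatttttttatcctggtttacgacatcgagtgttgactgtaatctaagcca
Sf3b3: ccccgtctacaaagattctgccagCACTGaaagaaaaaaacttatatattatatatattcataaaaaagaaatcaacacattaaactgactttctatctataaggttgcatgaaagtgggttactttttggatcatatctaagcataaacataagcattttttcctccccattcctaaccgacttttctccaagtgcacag
dmrt11E: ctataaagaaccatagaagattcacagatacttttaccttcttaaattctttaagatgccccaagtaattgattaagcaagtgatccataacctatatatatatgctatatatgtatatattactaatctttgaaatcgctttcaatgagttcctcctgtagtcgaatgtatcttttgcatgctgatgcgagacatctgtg
Kdm2: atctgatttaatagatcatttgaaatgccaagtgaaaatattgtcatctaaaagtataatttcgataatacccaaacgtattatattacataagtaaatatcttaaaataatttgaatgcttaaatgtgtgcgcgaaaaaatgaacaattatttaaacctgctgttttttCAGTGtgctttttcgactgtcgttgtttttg
Ppr-Y: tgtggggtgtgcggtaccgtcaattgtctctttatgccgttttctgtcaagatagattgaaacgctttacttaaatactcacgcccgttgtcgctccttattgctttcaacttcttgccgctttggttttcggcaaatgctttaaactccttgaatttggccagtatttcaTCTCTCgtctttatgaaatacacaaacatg
Pzl: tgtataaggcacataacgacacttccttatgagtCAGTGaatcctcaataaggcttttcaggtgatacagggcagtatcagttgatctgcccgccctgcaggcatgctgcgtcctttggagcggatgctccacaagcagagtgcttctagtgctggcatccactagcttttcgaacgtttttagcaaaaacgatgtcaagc
CG43815: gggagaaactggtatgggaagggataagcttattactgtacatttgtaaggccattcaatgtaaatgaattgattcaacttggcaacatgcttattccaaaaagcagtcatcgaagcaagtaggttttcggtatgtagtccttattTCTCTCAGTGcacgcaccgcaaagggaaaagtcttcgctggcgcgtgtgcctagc
ATbp: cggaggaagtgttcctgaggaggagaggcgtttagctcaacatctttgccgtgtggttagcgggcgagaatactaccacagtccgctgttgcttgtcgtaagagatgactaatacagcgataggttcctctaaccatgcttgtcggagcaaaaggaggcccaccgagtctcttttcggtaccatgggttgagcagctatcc
Myo81F: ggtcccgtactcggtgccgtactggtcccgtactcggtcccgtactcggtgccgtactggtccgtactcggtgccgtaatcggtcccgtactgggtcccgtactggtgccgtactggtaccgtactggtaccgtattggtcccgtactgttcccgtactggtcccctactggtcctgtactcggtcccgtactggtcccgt
Neither string was in the windows of smg, dmrt11E, ATbp and Myo81F, and the window at Myo81F, with 62.2% GC, held 15 copies of CCGTA on the printed strand. The second group was chosen after the values were seen, to show the string on AT-rich DNA. Among 622 regions of those arms with an exon-free window and a ranked region in both replicates, 13 had under 40% GC and at least 2 copies of CAGTG, and the 4 with the highest signal are given. They are nearest to H15 (chr2L:5425495-5425695), beat-IIIc (chr2L:17243451-17243651), scrib (chr3R:26557629-26557829) and Fie (chr3L:3875108-3875308).
H15: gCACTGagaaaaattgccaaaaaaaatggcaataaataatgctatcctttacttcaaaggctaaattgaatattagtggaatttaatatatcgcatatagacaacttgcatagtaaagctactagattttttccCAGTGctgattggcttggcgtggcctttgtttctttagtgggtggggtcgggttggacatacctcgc
beat-IIIc: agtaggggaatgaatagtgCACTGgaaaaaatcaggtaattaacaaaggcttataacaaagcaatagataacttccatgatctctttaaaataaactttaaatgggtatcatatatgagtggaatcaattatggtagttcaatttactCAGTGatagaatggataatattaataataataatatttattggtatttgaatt
scrib: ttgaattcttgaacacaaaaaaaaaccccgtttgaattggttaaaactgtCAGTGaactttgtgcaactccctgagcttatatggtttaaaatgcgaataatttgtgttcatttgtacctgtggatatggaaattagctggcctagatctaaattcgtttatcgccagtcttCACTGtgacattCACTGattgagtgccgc
Fie: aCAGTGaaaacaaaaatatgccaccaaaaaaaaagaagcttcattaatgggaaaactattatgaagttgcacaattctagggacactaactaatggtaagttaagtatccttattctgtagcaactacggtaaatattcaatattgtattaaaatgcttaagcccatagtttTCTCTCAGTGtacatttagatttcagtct
In the H15 window the copies were centred 97 bp before and 36 bp after the summit, in the beat-IIIc window 79 bp before and 50 bp after it, and in the Fie window 97 bp before and 79 bp after it. The scrib window held 3 copies, centred 48 bp before and 74 and 86 bp after the summit. Each of these windows thus had a copy on both sides of the summit.

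The signal, the authors' own value per region on a scale that is not stated, was part of the choice and is a description here. The lowest of the 962 regions had a signal of 2.00, the median was 57.1 and the highest was 121. The median was 107 for the 1013 non-exonic peaks of the conservative list on the arms, called peaks below, and 19.8 for 92969 regions of IDR over 0.05 that passed the same rules of arm, exon and overlap, called weaker regions. Of the 64 regions with a signal under 30, 60 overlapped a stronger ranked region. The 3 regions just inside the IDR of 0.05 were nearest to CG31300, CG17571 and jing, with signals of 57.5, 62.2 and 14.3. Just outside it lay regions nearest to CG31300, Hs3st-A and CG44341 with 10.4, 43.3 and 16.1, the first of them overlapping the inside neighbour at CG31300. Just inside 0.01 the regions nearest to Adhr, CG34354 and CG32440 had 64.2, 62 and 70.8, and just outside it those nearest to nvd, Reg-2 and CG13251 had 50.2, 100 and 73.

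Each replicate's own ranked list held nearly all of the regions. Of 962, 939 (97.6%, exact binomial interval at 95% 96.4 to 98.5) overlapped a ranked region of both replicates, against 65.4% of all ranked regions on the arms, 98.3% of peaks and 63.7% of weaker regions. A further 12 overlapped one in replicate 1 alone and 11 in replicate 2 alone. Since the IDR was made from the same ranks, this describes the choice. Intervals here and below cover counting error only, and 110 of the regions overlap each other in pairs, so that they form 907 separate places.

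In replicate 1 the own signal ran from 22.1 to 63.9 with a median of 28.2, and in replicate 2 from 23.8 to 104 with a median of 30. These scales are separate, so ranks were compared: the median region stood at the 95.7th percentile of the list of replicate 1 and the 95.9th of that of replicate 2. The percentile was higher in replicate 1 for 457 of the 939 regions, so neither replicate led. Past the threshold of a single replicate stood 8 regions (0.832%) in replicate 1 and 1 region (0.104%) in replicate 2. Of the weaker regions, which also overlap no thresholded peak of the list from both, 0.0624% and 0.0151% did. Over all ranked regions on the arms the shares were 0.726% and 0.433%. Those include the peaks, of which 69.6% and 47.6% did. The 8 were nearest to CG43815, betaTub60D, Pzl, CG8654, Hap40, Cipc, Hug and wake, and the 1 of replicate 2 was nearest to Atet.

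**Figure D1:**
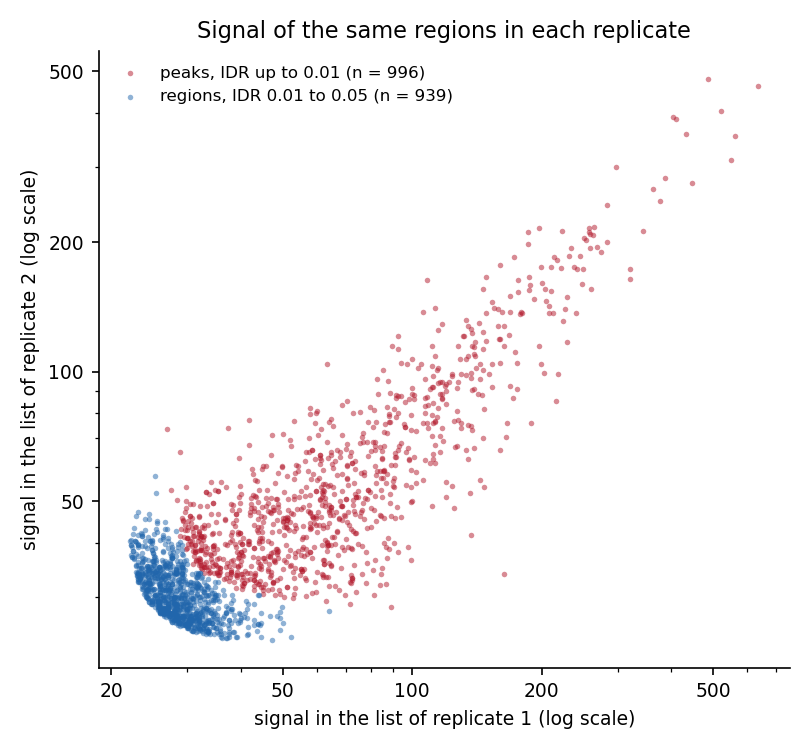
Signal in the ranked list of replicate 1 (x axis) and of replicate 2 (y axis), both logarithmic and without a stated unit, for 996 peaks and 939 regions of IDR 0.01 to 0.05 found in both lists. Each value is that of the replicate's ranked region with the largest overlap, so regions that overlap each other can carry the same values. The regions form the lower left corner, with medians of 28.2 and 30, below and to the left of the peaks.

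The 25 strongest regions found in both replicates' lists were spread over promoters, introns and the ground between genes. Within 500 bp of a TSS lay 4, in introns 7 and between genes 14, and 5 were over 50 kb from any protein-coding TSS. The strongest, 9433 bp from the TSS of CG43815, had a signal of 90.4, with 49.7 in replicate 1 and 28.3 in replicate 2. Between genes at the base of X a region nearest to ATbp had 85, with 52.2 and 24.1, and on 3R one nearest to Myo81F, a myosin gene, had 83.6, with 63.9 and 27.7. By percentile, 19 of the 25 stood higher in the list of replicate 1.

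Among the strongest near genes of known role was one 115 bp from a TSS of smg, which encodes the RNA-binding repressor Smaug of maternal mRNAs, with a signal of 75.9 and own values of 34.9 and 31.6. An equal 75.9, with 44.2 and 25.7, was found 13614 bp from the TSS of betaTub60D, a tubulin gene of the mesoderm. The region 842 bp from the TSS of Atet, an ABC transporter gene, had 75.3 and was the reverse case, with 25.2 in replicate 1 and 57.2 in replicate 2. An intronic region nearest to Kdm2, a JmjC-type demethylase gene, had 75.1, with 48.6 and 27.1. The region nearest to H15, a T-box gene, had 71.1, with 41.2 and 26.8, and a second region at that gene had 59.4, with 28.9 and 31.6. The remaining regions of the 25 had signals of 71.1 to 78.9, and replicate values over all 25 ran from 22.4 to 63.9 and from 24.1 to 57.2.

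Among the 28 regions with the highest signal, 3 were not matched in both lists. The highest signal of all, 121, lay in an annotated transposable element 13302 bp from the TSS of UQCR-11, with 104 in replicate 2 and no overlapping ranked region in replicate 1. An intronic region nearest to kirre, which encodes an adhesion protein of founder myoblasts, had 78.9, with 27.2 in replicate 2 and none in replicate 1. A region between genes, 3319 bp from the TSS of COX7AL2 and named with its value in view, had 71.7, with 37.1 in replicate 1 and none in replicate 2. Of the 962 regions 24 (2.49%) had the summit in an annotated transposable element, against 1.38% of peaks and 1.86% of weaker regions. None lay within 200 bp of a tRNA, snoRNA or snRNA gene, and 0 of 962 allows a share of up to 0.312%. The weaker regions had 0.0409%, 0.0473% and 0.00861% there and the peaks none, so the 0 does not set the regions apart.

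Position was not used by the rule, apart from exonic summits. Within 500 bp of a TSS lay 173 of 962 regions (18%, 15.6 to 20.6), against 43.5% of peaks and 15.5% of weaker regions. The difference to the peaks was -25.6 percentage points (Newcombe interval -29.4 to -21.6) and that to the weaker regions was 2.45 points (0.142 to 5.02). In introns lay 432 (44.9%), against 32.8% of peaks and 50.1% of weaker regions, and between genes 357 (37.1%), against 23.7% and 34.3%. By IDR, the TSS share stepped down at 0.01, with 58.6% of peaks up to an IDR of 0.001 near a TSS, 36.2% from there to 0.01, 15.9% of the regions from 0.01 to 0.02 and 18.6% from 0.02 to 0.05. With replicate 2's own list in place of the list from both, 13.4% of 194 regions were near a TSS, and with that of replicate 1, 20.6% of 306. A replicate's own list has its own IDR. Its median was 0.533 for the 951 regions matched in replicate 1 and 0.361 for the 950 matched in replicate 2. Most of the 962 regions thus fell outside the range there, and values from an own list, here and below, are not those regions measured again.

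Over the 100 bp on either side of the summit the GC content averaged 49% in the regions (SD across regions 8.23, n = 962), against 38.3% in peaks (SD 8.64, n = 1013) and 45.8% in weaker regions (SD 7.02, n = 92969). In the list from both replicates the regions were thus above both other sets. By IDR the mean was 35.8% up to 0.001, 39.6% to 0.01, 48.3% to 0.02, 49.2% to 0.05, 48.8% to 0.1, 47.5% to 0.5 and 45.1% beyond. At least 50% GC was found in 488 regions (50.7%), against 12.1% of peaks and 28.1% of weaker regions. The regions that the own IDR of replicate 1 put in the range, a different set, had a mean of 43.8%, and those of replicate 2 had 50.7%. The mean with replicate 1 alone was thus below the 45.8% of the weaker regions in the list from both. Weaker regions of a replicate's own list were not measured, so the order within a single replicate is unknown.

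Chromosome X held 79 of the regions (8.21%, 6.56 to 10.1), against 19.3% of peaks and 17.3% of weaker regions. The difference to the weaker regions was -9.11 points (-10.7 to -7.19). Per megabase, X had 3.36 regions and the 4 long autosomal arms 7.11 to 9.13, while peaks were as dense on X, at 8.33, as on those arms, at 7.14 to 8.08. The share on X was 21.5% and 18.3% in the bins of peaks, 8.81% and 8.03% in the bins of the regions, 6.43% from 0.05 to 0.1, and 12.4% and 19.4% beyond. In the own list of replicate 1 the same IDR range had 13.7% on X, and in that of replicate 2, 7.22%, so the share was higher with replicate 1.

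**Figure D2:**
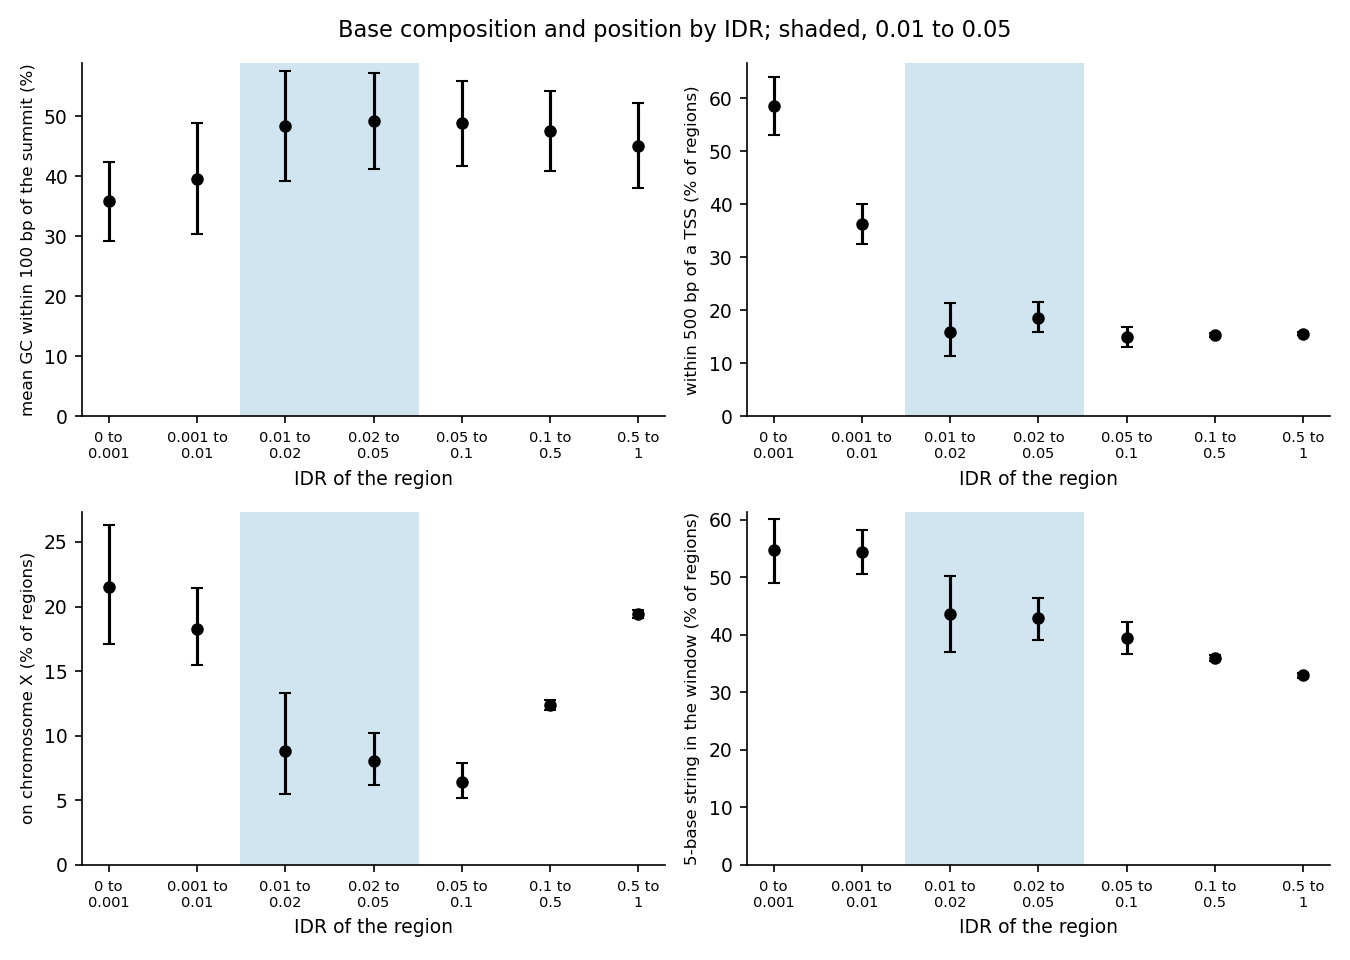
Mean GC (points, with SD across regions), share within 500 bp of a TSS, share on X and share holding CAGTG or CACTG (points, with exact binomial 95% intervals) on the y axes, by IDR of the region on the x axis. The shaded bins are the regions of IDR 0.01 to 0.05: the TSS share steps down at 0.01, and, in this list from both replicates, the mean GC is near its highest and the X share near its lowest in and beside the shaded bins.

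A minority of the regions was as AT-rich as the peaks. The split at 40% GC was made after the values were seen, so its shares are descriptions. Under 40% GC were 141 regions (14.7%), against 66.9% of peaks and 20.2% of weaker regions. Of these 141, 53 (37.6%, 29.6 to 46.1) lay within 500 bp of a TSS, against 120 of the other 821 (14.6%, 12.3 to 17.2). On X lay 32 of the 141 (22.7%, 16.1 to 30.5) and 47 of the 821 (5.72%, 4.24 to 7.54). A ranked region of both replicates was overlapped by 132 of the 141 (93.6%, 88.2 to 97) and 807 of the 821 (98.3%, 97.2 to 99.1). The same held for 98.1% of AT-rich peaks and 53.2% of AT-rich weaker regions.

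AT-rich peaks had 51.3% within 500 bp of a TSS and AT-rich weaker regions 12.3%, so the AT-rich regions stood between them. On X were 17.6% of AT-rich peaks and 20.2% of AT-rich weaker regions, inside the interval of the AT-rich regions. Of weaker regions of 40% GC or more, 16.3% were near a TSS and 16.6% on X, so that the lower share on X was that of the 821 regions of 40% GC or more. The median signal was 59.4 in AT-rich regions and 56.8 in the others, and the own medians were 29.3 and 28.1 in replicate 1 and 29.6 and 30 in replicate 2. In the own list of replicate 1, 34.6% of 107 AT-rich regions of the range were near a TSS and 17.8% were on X. In that of replicate 2 only 15 were AT-rich, of which 26.7% were near a TSS and 13.3% on X.

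The promoter regions formed 2 humps by composition. Of the 173 within 500 bp of a TSS, 53 had under 40% GC, 30 had 40 to 50% and 90 had 50% or more. Of the 441 promoter peaks, 348 had under 40% and 22 had 50% or more. A region counted as at a divergent pair if protein-coding TSSs on opposite strands, running apart, lay within 500 bp of its summit. The summit need not lie between them. At such pairs were 23 of the 53 AT-rich regions (43.4%, 29.8 to 57.7) and 5 of the 90 of 50% GC or more (5.56%, 1.83 to 12.5). For promoter peaks these shares were 46.6% and 4.55%. They were not computed for weaker regions or for all TSSs. Whether AT-rich promoters in general have the same split was not tested.

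Several of the divergent pairs with AT-rich regions have genes of known role. At the pair Irbp18 and APP-BP1, the latter encoding a subunit of the Nedd8-activating enzyme, the signal was 69.1, with 41.5 in replicate 1 and 25.5 in replicate 2. At Pax, which encodes the adhesion adaptor paxillin, and Alp12, an alkaline phosphatase gene, it was 66.7, with 28.7 and 32.5. At yem, which encodes a partner of the histone chaperone HIRA, and Ctl2 it was 66.3, with 27.7 and 30.8. At Vha68-1, a subunit of the vacuolar proton pump, and mTor, the growth-regulating kinase, it was 50.7, with 28 and 29.5. These pairs were chosen after their values were seen.

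GC-rich promoter regions stood near other genes. The strongest were 339 bp from the TSS of CG13040, with a signal of 76.3 and own values of 34.7 and 30, and 233 bp from that of CG15423, with 73.7, 25.1 and 41.9. Their windows had 61.2% and 60.2% GC. A region named after its value was seen, at the pair CG13051 and CG13069, had 66.4, with 38.4 and 29.5, at 60.2% GC.

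**Figure D3:**
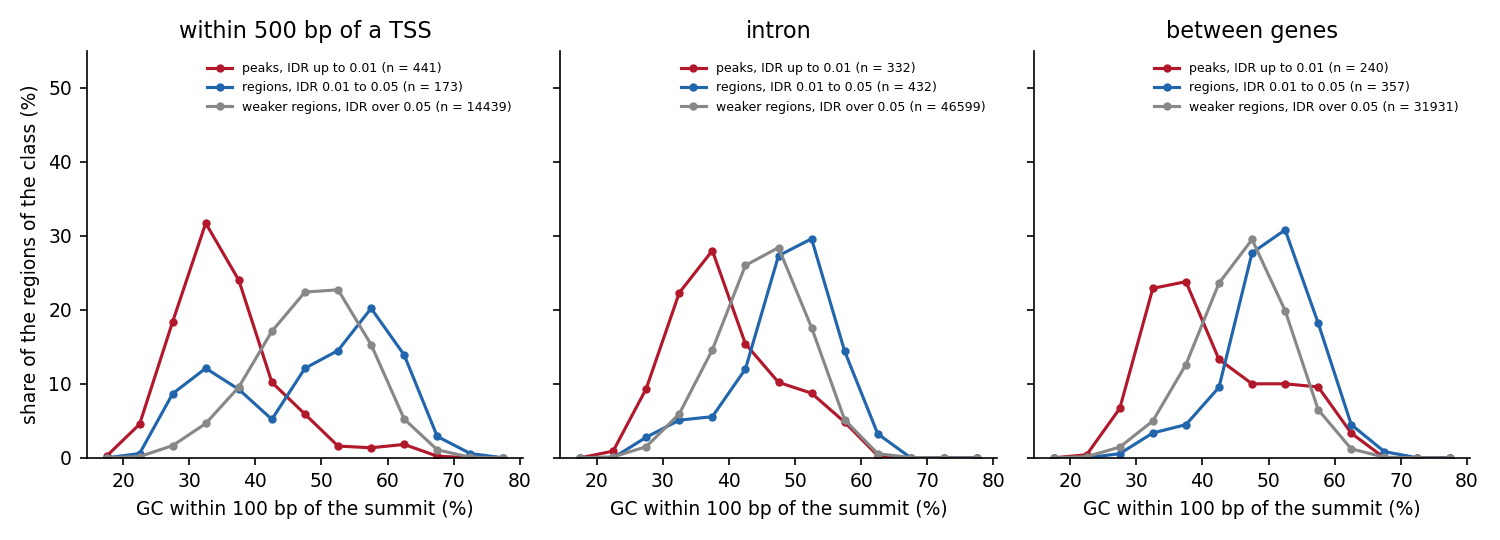
Share of regions (y axis, % of the class) by GC within 100 bp of the summit (x axis, steps of 5%) for regions within 500 bp of a TSS, in introns and between genes. Among promoter regions of IDR 0.01 to 0.05 (n = 173) there is one hump at the GC of the peaks and a larger one above 50%, whereas peaks and weaker regions have a single hump.

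CAGTG was searched on both strands in the 100 bp on either side of each summit, with overlapping matches allowed. It was found in 414 regions (43%, 39.9 to 46.2), against 54.5% of peaks and 33.9% of weaker regions. Windows of that width around all protein-coding TSSs, called TSS windows below, held it in 36.9%. The regions exceeded the weaker regions by 9.15 points (6.04 to 12.3). At least 2 copies were held by 106 regions (11%), against 18.2% of peaks and 7.35% of weaker regions. Of the 60 strings that use the same letters, counted with their reverse complements, CAGTG had the highest ratio of peaks to weaker regions, 1.61. It had the second highest ratio of regions to weaker regions, 1.27, after CGTAG with 1.28, where the median string had 1.05. CAGTG was chosen with earlier results of these data known and is frequent at these peaks. Its first place among peaks is therefore a description and no separate support.

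The difference in CAGTG to the weaker regions was largest on AT-rich DNA and was not detectable on GC-rich DNA. Under 40% GC the string was held by 75 of 141 regions (53.2%), against 56% of peaks and 28.7% of weaker regions, a difference to the weaker regions of 24.5 points (16.3 to 32.6). From 40 to 50% GC it was held by 43.5% of regions and 32.8% of weaker regions, a difference of 10.7 points (5.51 to 16.1). At 50% GC or more the shares were 39.8% and 39.6%, a difference of 0.138 points (-4.15 to 4.58). In the own list of replicate 1, 39.3% of the 107 AT-rich regions of the range held it, and in that of replicate 2, 53.3% of the 15, so the AT-rich share was lower with replicate 1 alone. By place, 45.7% of promoter regions, 45.6% of intronic ones and 38.7% of those between genes held the string. In the same places peaks had 46.9%, 60.2% and 60.4%, and weaker regions 37.8%, 33% and 33.4%. The regions were thus near the peaks at promoters only.

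**Figure D4:**
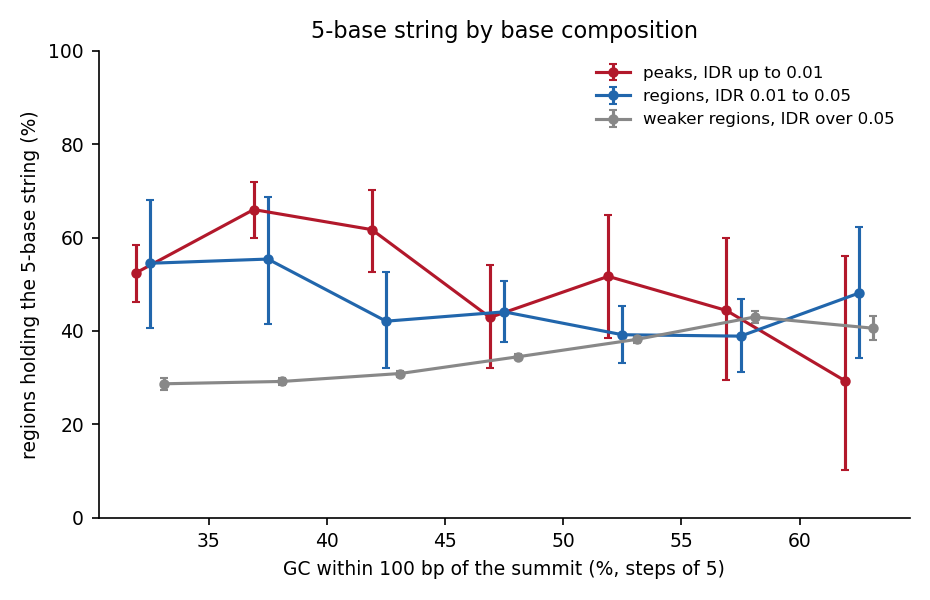
Share of regions holding CAGTG or CACTG (y axis, %, with exact binomial 95% intervals) by GC of the window (x axis, steps of 5%) for peaks, regions of IDR 0.01 to 0.05 and weaker regions. From 30 to 35% GC the regions had 54.5% and the peaks 52.4%, from 35 to 40% the regions had 55.4% and the peaks 66%, and both lie above the weaker regions there; from 50% on the regions and weaker regions come together.

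The string also had a place. Per 25 bp and 100 windows, peaks had 6.02 copies within 50 bp of the summit, 12 from 50 to 150 bp on either side and 5.18 from there to 500 bp. The AT-rich regions had 7.27, 11.7 and 5.55, the same order of values as the peaks. The other 821 regions had 6.76, 6.68 and 4.96, with no such dip at the summit. AT-rich weaker regions had 4.37, 4.55 and 4.27 and were flat.

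**Figure D5:**
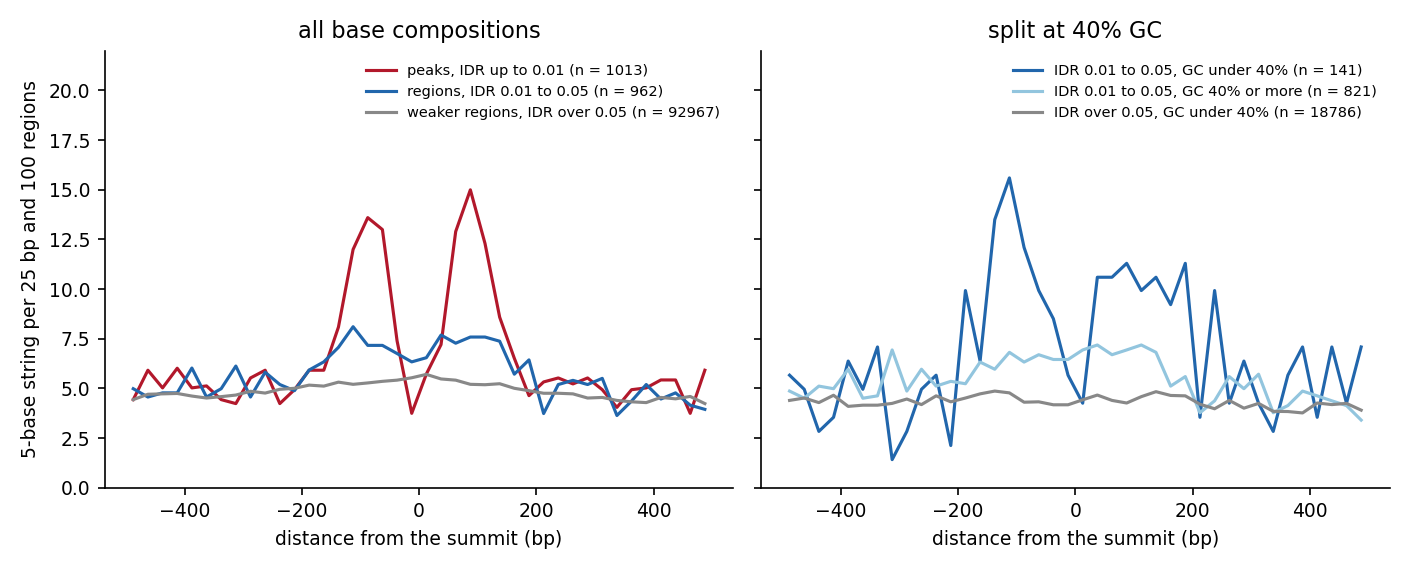
Copies of CAGTG or CACTG per 25 bp and 100 regions (y axis) by distance from the summit (x axis, bp), for all base compositions (left) and split at 40% GC (right). The 141 AT-rich regions of IDR 0.01 to 0.05 have 11.7 copies from 50 to 150 bp against 7.27 within 50 bp, where the peaks have 12 and 6.02. After the summit the AT-rich regions have no single maximum, with 11.3 both from 75 to 100 bp and from 175 to 200 bp.

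Of the other strings, the GAGA repeat, the TATA box core and runs of adenine had shares nearer to the weaker regions than to the peaks. GAGAGA was in 7.9% of regions, 11.4% of peaks, 7.32% of weaker regions and 9.73% of the protein-coding TSS windows. The TATA box core, TATAAA, was in 12.4%, 33.8%, 14.8% and 26.9% of these. A run of 7 adenines was in 10.8%, 24.1%, 13.8% and 17.7%. In the own lists of replicates 1 and 2 the range had GAGAGA in 9.15% and 5.15%, the TATA box core in 19.6% and 9.28%, and the run of adenines in 16.3% and 6.19%, so these shares moved with the replicate. Both E-boxes searched, strings bound by basic helix-loop-helix proteins, were more frequent in the regions than in both other sets, with CAGCTG in 13.6%, 6.81% and 10.2% and in 13.4% of TSS windows, and CACGTG in 4.57%, 1.28% and 3.06% and in 2.8% of TSS windows. The differences to the weaker regions were 3.45 points (1.42 to 5.77) for CAGCTG and 1.52 points (0.362 to 3.03) for CACGTG. Under 40% GC, CAGCTG was in 4.96% of regions and 5.71% of weaker regions, a difference of -0.747 points (-3.31 to 4.19). CACGTG was there in 0 of 141 regions and 1.79% of weaker regions, a difference of -1.79 points (-1.99 to 0.865). At 40 to 50% GC the differences were 3.75 points (0.482 to 7.85) for CAGCTG and 2.09 points (0.188 to 5.01) for CACGTG, and at 50% GC or more 2.08 points (-0.953 to 5.63) and 1.49 points (-0.226 to 3.9). In the own list of replicate 1, CAGCTG was in 10.8% of the range and CACGTG in 1.63%. In that of replicate 2 these shares were 16% and 3.61%. For CACGTG the share with replicate 1 was below the 3.06% of weaker regions in the list from both. Weaker regions of a replicate's own list were not measured for these strings. The site of the early activator Zelda, CAGGTAG, was in 0.936% of regions, 0.972% of weaker regions and 1.08% of TSS windows, and in 0% and 0.515% of the range in the own lists of replicates 1 and 2. Nothing about a factor follows from a match or its absence.

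By nearest TSS the regions belonged to 733 of 13968 protein-coding genes, or 5.25%. A single region fell to 578 of these genes, 2 to 119 and at least 3 to 36. Most had Myo81F with 19, ATbp with 11 and Pzl, a Piezo-like channel gene, with 9, and these long stretches next to centromeres also held 1335, 284 and 961 weaker regions. Away from them, Ptp99A, a receptor phosphatase of axons, had 5, beside 157 weaker regions. The genes CG14861, Rbp6, CG41520, lace, CG15711 and tou had 4 each. Those of lace, which encodes a subunit of serine palmitoyltransferase, lay within 6.7 kb, and those of CG15711 within 3.3 kb. CG14861, Rbp6, lace, CG15711 and tou were also nearest to 69, 203, 32, 11 and 25 weaker regions. The 4 of CG41520 lay far from its TSS, by 103421 to 271470 bp, and 151 weaker regions were nearest to it as well. CG34354 and mtt had 3 each, beside 156 and 79 weaker regions. Regions that overlap each other were counted separately in these numbers per gene.

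Most regions were nearest to a gene with no thresholded peak. Of the 962 regions 219 (22.8%, 20.2 to 25.5) had a nearest gene that was also nearest to a thresholded peak, against 22.1% of weaker regions, a difference of 0.631 points (-1.92 to 3.4). Of the 733 genes 134 (18.3%) were nearest to such a peak, against 7.76% of all protein-coding genes. The median distance to the nearest thresholded summit was 41694 bp for the regions and 44574 bp for the weaker regions.

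Of Dan's own family, danr and a pair of other genes had a region. At danr a region 18904 bp from the TSS had a signal of 65.9, with 27.9 in replicate 1 and 29 in replicate 2, while no region was nearest to dan, whose strongest ranked region had 269. In the list of Pipsqueak-type genes, 3 of 7 genes had a region, against 5.25% of protein-coding genes. By regions this was 0.312% of the regions and 0.271% of weaker regions. The others were at Eip93F, an ecdysone-induced regulator of metamorphosis, with 63.8, 22.8 and 46.1, and at bab1, a regulator of distal limb patterning, with 62.1, 26.2 and 31.2.

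Over all 24 gene lists, 30 of 301 genes (9.97%) had a region, against 5.25% of protein-coding genes. By regions the order was the other way, with 36 of 962 (3.74%) at listed genes against 5.16% of weaker regions. In the list of neuronal differentiation and recognition 8 of 28 genes (28.6%) had one, or 13 regions (1.35%) against 0.952% of weaker regions. Those with the highest signal were at robo2, an axon guidance receptor, with 67.1, at beat-IIIc, of the Beaten path family, with 66.4, and at Con, a homophilic adhesion protein of muscle and nerve, with 63.4. In replicate 1 these had 32.8, 30.6 and 34.9, and in replicate 2 beat-IIIc had 30.7, Con had 27.4 and robo2 had no overlapping ranked region.

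Polarity and neuroblast genes had 4 regions at 3 of 18 genes (16.7%, against 5.25% of protein-coding genes), or 0.416% of regions against 0.245% of weaker regions. At dlg1, a scaffold protein gene, the signal was 68.2, with 35.6 and 24.5. At scrib, its partner in apical and basal polarity, it was 64.6, with 34.5 and 25.5, and a second region had 59.3. At pros, which encodes the homeodomain factor Prospero of ganglion mother cells, it was 61.3, with 24.8 and 29.3. The region near SoxN, a Sox gene of the neuroectoderm, had 44.3, with 25.9 and 27.6. It was the only one at 12 proneural and neuroectoderm genes, or 0.104% of regions against 0.173% of weaker regions.

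Some lists of patterning and signalling genes had 1 to 3 genes with a region and others had none, where 5.25% of all protein-coding genes had one. Brackets give the genes with a region, then the share of regions against that of weaker regions. Among pair-rule genes hry (hairy) had 63.7 and slp2 had 51.3 (2 of 9, 0.208% against 0.145%). Among gap genes the paralogues knrl and kni had 58.8 and 57.6 (2 of 12, 0.208% against 0.218%). The Hox gene Abd-B had 53.9 (1 of 8, 0.104% against 0.218%) and the Notch ligand gene Ser 56.9 (1 of 12, 0.104% against 0.113%). The ligand gene Wnt2 had 53.4 (1 of 17 Wnt and Hedgehog genes, 0.104% against 0.198%). The Dpp pathway genes brk, a repressor of Dpp targets, and put, a receptor, had 60 and 55.6 (2 of 14, 0.208% against 0.205%). In muscle, stumps, an adaptor of the fibroblast growth factor receptor, had 61.9 besides the 78.9 at kirre (2 of 17, 0.208% against 0.373%). Among ecdysone genes Blimp-1 had 58.6 and Hr38 had 51.4 besides Eip93F (3 of 14, 0.312% against 0.591%). In the retinal list toe, a Pax gene of the eye, had 65.2 (1 of 12, 0.104% against 0.163%).

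No region was nearest to a listed gene of the EGF receptor pathway (0 of 14), segment polarity (0 of 12), dorsal ectoderm and amnioserosa (0 of 11), glia and hemocytes (0 of 12), Polycomb and Trithorax group (0 of 16), cell cycle (0 of 19) or heat shock and chaperones (0 of 14). In each of these lists 4 to 6 genes were nearest to a thresholded peak. At the 5.25% of all protein-coding genes a list of this size would have about 1 gene or none, so nothing is read from these counts of 0. Of the 92969 weaker regions 252, 166, 162, 147, 21, 20 and 13 were nearest to a gene of these lists, in the order given.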

How the data were processed

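The authors deposited ranked and thresholded region lists on dm6, per the labels, for each of 2 replicates and for both together. For the aligner, the peak caller, their versions and the kind of control the entry is: not given in the sources used here. The deposited signal is the authors' own value per region, on a scale that is not stated, and was used to rank and describe regions within a list. The deposited −log10 IDR chose the regions, and the deposited −log10 q gave an alternative ranking. The depth is unknown. The regions, gene lists and strings were chosen with earlier results of these data known.

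Each summit was assigned the nearest TSS of any gene in Ensembl release 115 (BDGP6.54), transposons left out, and the nearest protein-coding gene for its name. Replicate values came from each replicate's own list, by the largest overlap of at least 1 bp. Windows were read from the RefSeq sequence of Release 6. Shares have exact binomial intervals and differences Newcombe intervals, both at 95%, and no p-value was computed. Genes named are those nearest to the 25 strongest regions in both own lists, to at least 3 regions (up to 12 genes), to up to 3 regions per gene list and to the bounds, with dan and danr. UQCR-11, COX7AL2, the divergent pairs and the regions past a single replicate's threshold were named with their values in view. Scripts ran in Python (version 3.11.15) with pandas 2.3.3 and numpy 2.4.6 for the tables, scipy 1.17.1 for intervals and matplotlib 3.10.9 for plots, and were tested on simulated regions. Sequence of arm 2R is not printed.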

Additional observations from a re-analysis of the deposited data

Results flagged for a closer look

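Off the chromosome arms, on 71 unplaced or unlocalised sequences, 94 ranked regions had an IDR over 0.01 and up to 0.05, and no comparison here uses them. They were 6.1% of all regions in the range, while 2.66% of all ranked regions lay off the arms. Their signal ran from 5.98 to 101 with a median of 61.5, and 40 of them were on unlocalised X sequences. There are no control samples to set them beside.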

How the results depend on the processing

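Of 95 recomputed values of the main results, 68 stayed inside the interval, or within 1.5 times, of the main value, and of 141 values for single strings and the ranking 109 did. Replacing the list from both replicates by a replicate's own list gave 194 to 306 regions, 13.4% to 20.6% near a TSS, a mean GC of 43.8% to 50.7%, 7.22% to 13.7% on X, 28.4% to 29.4% with a gene shared with a thresholded peak, and 43.5% to 44.8% with CAGTG. For AT-rich regions these lists gave 26.7% to 34.6% near a TSS, 13.3% to 17.8% on X and 39.3% to 53.3% with CAGTG, from 15 and 107 regions. Each own list has its own IDR, so its range is a different set of regions. The range of 0.01 to 0.02 held 227 regions, with a mean GC of 48.3% and 26% sharing a gene. Keeping exonic summits gave a mean GC of 51.2% and 13.6% near a TSS, the larger total being part of that alternative. Near a TSS lay 8.73% at 200 bp, 23.9% at 1000 bp and 15.2% with protein-coding start sites only. CAGTG was in 24.6% of windows of 50 bp either side, which are shorter by construction. An overlap of at least 50% of the region in both replicates was met by 88.7%. A gene was shared in 8.94% when any gene within 5000 bp counted, and in 17.6% with the conservative list only. Chosen after seeing the data, keeping regions that overlap a thresholded peak gave a mean GC of 48.4% and 32.3% sharing a gene, and keeping only regions within 50000 bp of a protein-coding TSS gave 17.6% sharing a gene. The cause of these moves was not tested beyond what each alternative does by construction. Ranking by −log10 q named the same 25 regions. The share in both replicates' lists has no value for a single replicate's list or for regions already taken from both. No paired analysis was possible because there is only 1 group. Unknown depth and an unknown signal scale leave the size of binding per region unmeasured, and 2 replicates give no spread for any share.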
